A study of Mus musculus with 4 samples.

Results

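Open chromatin was examined at 10 genes of the smooth muscle and actin programme in mouse cells without and with the nuclear pore protein RANBP2. The genes were the transcription factor gene Srf and its coactivator gene Myocd, the actins Acta2 and Actb, the actin-binding genes Tagln, Cnn1 and Lmod1, the tropomyosins Tpm1 and Tpm2, and the myosin light chain gene Myl9. They are 10 of 21887 protein-coding genes in the RefSeq table used. A peak was assigned to a gene when its summit lay inside the gene's RefSeq span or within 50 kb of it in mm10, and peaks of different libraries that overlapped were joined into 1 region. This gave 72 of 39137 regions in all. Of these, 7 lay at a gene end (summit within 1 kb of either end of the gene), 14 further inside a gene and 51 outside, here called distal. An end of another gene lay within 1 kb of the summit for 16 of the distal regions. The lower and upper end of a gene are those with the smaller and the larger coordinate.

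The knockout group consisted of 2 ATAC-seq libraries from 10T1/2 cells carrying a Ranbp2 knockout made with CRISPR-Cas9. Per the series' design text, GFP-positive cells were sorted singly and the knockout studied was 1 of the resulting clones. The wild-type group consisted of 2 libraries from 10T1/2 cells with intact Ranbp2. 10T1/2 is a mouse embryonic fibroblast line with mesenchymal potential, ATAC-seq marks open DNA by inserting adapters with a transposase, and the comparison asks how accessibility differs without RANBP2. Nothing in the labels says that replicates were separate cultures, so p-values measure only the spread between these libraries, which may be technical, and clone and genotype cannot be told apart. Because each library comes from a bulk of cells, fewer cells with an open site and a weaker opening in every cell also cannot be told apart.

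The knockout libraries had 13877 and 24292 peaks and the wild-type libraries 33721 and 18511, and the number of reads behind them is unknown. Of 15 fibroblast and mesenchymal markers, the knockout libraries had peaks at the ends of 4 and 6, against 11 and 7 for the wild-type libraries. Over all protein-coding genes, the shares with a gene-end peak were 27.6% and 36.3% in knockout and 42.5% and 34.6% in wild type. The marker counts were not taken at equal list length. Markers of epithelium, endothelium and skeletal muscle had 0 in each library. Of the cardiac markers Tnnt2 had one in all 4 libraries, and of the immune markers Cd68 had one in knockout replicate 2 alone. The part of these differences in the results below was not tested.

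Smooth muscle contractile genes are controlled by SRF, a transcription factor that binds a short A/T-rich element, the CArG box, in their promoters. Myocardin, encoded by Myocd, and the related MRTF proteins bind SRF and switch on this programme. MRTFs are held in the cytoplasm by free actin monomers, so that actin assembly and SRF activity are linked, and SRF also acts on its own gene and on actin genes. Fibroblasts use part of the same programme for stress fibres and raise Acta2 and Tagln when they become myofibroblasts.

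Of the 10 genes, 7 had an entry in the RefSeq promoter table (GRCm38.p6, the assembly of mm10). Actb, Tagln and Myocd were not among them. The 250 bases before the start are shown for the genes with a peak within 1 kb of that start, and for Cnn1 as a smooth muscle marker without one. Capitals mark CArG boxes (an A/T core between CC and GG), exact ones and those with 1 mismatch in the A/T core.
Srf (chr17:46556163-46556412, minus strand): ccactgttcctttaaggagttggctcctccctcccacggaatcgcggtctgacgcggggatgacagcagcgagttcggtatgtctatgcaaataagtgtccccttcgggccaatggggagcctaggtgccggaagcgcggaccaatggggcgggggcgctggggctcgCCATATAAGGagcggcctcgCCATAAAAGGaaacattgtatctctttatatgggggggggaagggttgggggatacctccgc
Acta2 (chr19:34255374-34255623, minus strand): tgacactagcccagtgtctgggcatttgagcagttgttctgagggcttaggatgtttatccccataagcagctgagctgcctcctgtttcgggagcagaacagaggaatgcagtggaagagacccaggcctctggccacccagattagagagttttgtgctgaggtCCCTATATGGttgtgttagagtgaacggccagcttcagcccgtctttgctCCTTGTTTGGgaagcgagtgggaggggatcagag
Myl9 (chr2:156775214-156775463, plus strand): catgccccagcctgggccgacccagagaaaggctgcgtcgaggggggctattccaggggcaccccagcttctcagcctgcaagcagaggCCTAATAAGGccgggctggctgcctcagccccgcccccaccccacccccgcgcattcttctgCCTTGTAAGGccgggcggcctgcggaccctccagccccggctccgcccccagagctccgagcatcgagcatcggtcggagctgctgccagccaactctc
Tpm1 (chr9:67049214-67049463, minus strand): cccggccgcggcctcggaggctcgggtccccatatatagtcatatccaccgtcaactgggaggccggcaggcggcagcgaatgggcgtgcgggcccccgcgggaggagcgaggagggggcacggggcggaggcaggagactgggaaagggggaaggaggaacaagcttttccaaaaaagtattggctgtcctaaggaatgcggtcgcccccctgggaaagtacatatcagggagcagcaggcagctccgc
Lmod1 (chr1:135324563-135324812, plus strand): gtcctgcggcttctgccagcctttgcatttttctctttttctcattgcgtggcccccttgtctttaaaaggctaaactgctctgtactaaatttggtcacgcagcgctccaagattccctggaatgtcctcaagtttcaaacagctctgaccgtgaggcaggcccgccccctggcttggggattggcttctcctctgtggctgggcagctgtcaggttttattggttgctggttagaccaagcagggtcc
Cnn1 (chr9:22099003-22099252, plus strand): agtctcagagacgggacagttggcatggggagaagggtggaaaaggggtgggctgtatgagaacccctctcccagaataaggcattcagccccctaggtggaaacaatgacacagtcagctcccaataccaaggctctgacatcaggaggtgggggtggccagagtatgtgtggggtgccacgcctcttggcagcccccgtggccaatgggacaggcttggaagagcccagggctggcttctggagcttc

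The Srf and Myl9 stretches held exact CArG boxes, CCATATAAGG and CCATAAAAGG in Srf and CCTAATAAGG in Myl9. Of 32851 promoter stretches of this length in the table, 1.47% held an exact box on either strand. Those of Acta2, CCCTATATGG and CCTTGTTTGG, and a further one of Myl9, CCTTGTAAGG, had 1 mismatch in the core, as did boxes in 7.24% of all stretches. This looser form of the element was added after the exact search had been seen. The stretches of Cnn1, Tpm1, Tpm2 and Lmod1 held neither form. Other motifs were searched on both strands. GGAATG, bound by TEAD factors, was found in Acta2, Tpm1 and Lmod1 and in 12.6% of all stretches. GGGCGG, bound by Sp factors, was found in Myl9, Tpm1, Tpm2, Srf and Lmod1 and in 32.7%. TATAAA was found in Srf, on the opposite strand, and in 12.4%. TGANTCA, bound by AP-1, was in none of the 7 stretches and in 6.75% of all. GC content ran from 53.2% in Lmod1 to 70.0% in Myl9, where the median of the table was 52.4%. No match overlapped another. Matches are descriptions of these letters and do not show that a factor binds.

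**Figure D1:**
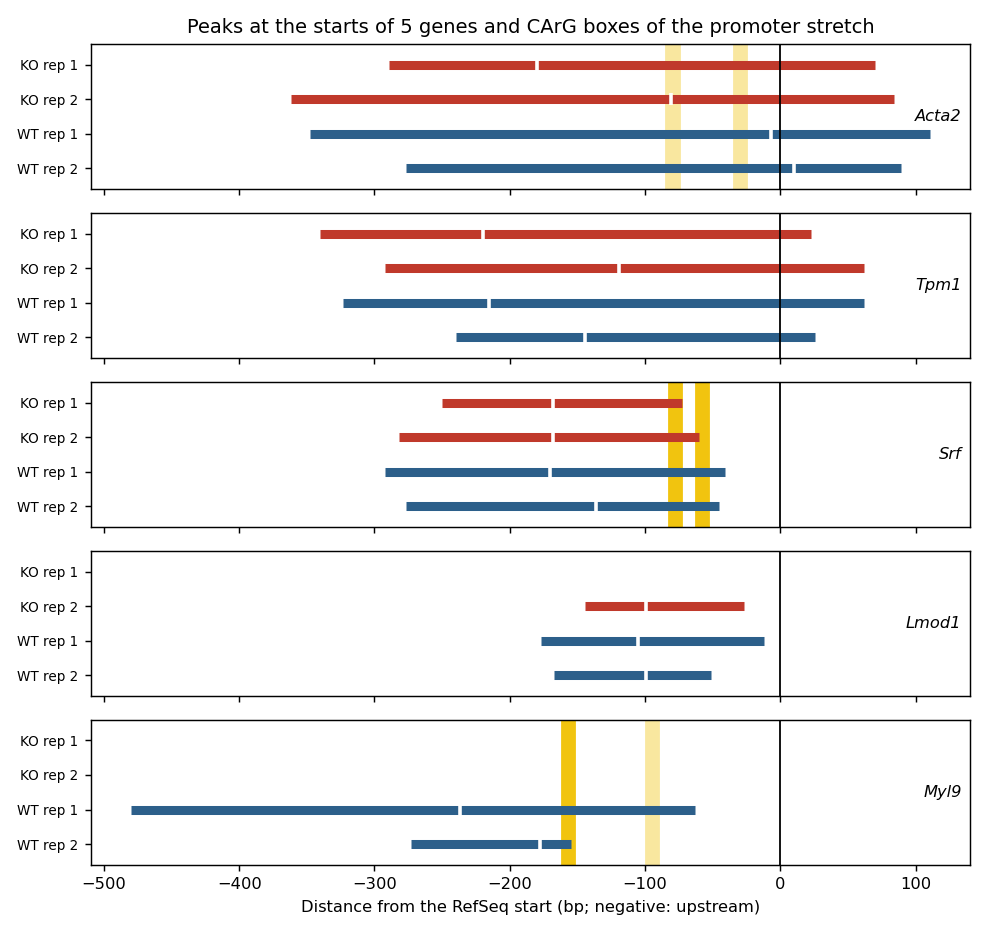
Peaks of each library (bars, white ticks at the summits; knockout red, wild type blue) against the distance from the RefSeq start in bp, negative upstream, for the 5 genes with a peak there. Dark yellow bands are exact CArG boxes and pale bands those with 1 core mismatch. Peaks of all 4 libraries are present for Acta2, Tpm1 and Srf, of 3 for Lmod1, and of the 2 wild-type libraries for Myl9.

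Gene-end peaks were found at 4 of the 10 genes, against 43.4% of all protein-coding genes with one in any library. Acta2, Tpm1 and Lmod1, the last at its 3′ end, had one in all 4 libraries, 3 of 10 against 26.4% of genes. The number was the same with 13877 peaks in every list, against 24.3%. Myl9 had one in the 2 wild-type libraries but in no knockout library, 1 of 10 against 1.69% of genes. The reverse was found for 0 of 10 members and 0.0503% of genes. By library, 3 and 3 genes had a gene-end peak in knockout, against 27.6% and 36.3% of all genes, and 4 and 4 in wild type, against 42.5% and 34.6%. Tagln, Cnn1, Tpm2, Myocd, Srf and Actb had none in any library. For Srf and Actb a peak of all 4 libraries lay 1.94 and 1.19 kb inside the upper end, so with 2 kb allowed 5 genes had a peak in all 4.

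Inside the 50 kb windows, 29 and 49 of the 72 regions had a peak in the knockout libraries and 65 and 47 in the wild-type libraries. All 4 libraries shared 25 regions (34.7%, against 28.0% of all merged regions), and 18 of 72 had a peak in a single library, against 40.9% of all merged regions, 12 of them in wild-type replicate 1, the longest list. A peak in the wild-type libraries alone, both of them, was found in 9 regions (12.5%, against 6.52%), and one in the knockout libraries alone in 1 (1.39%, against 0.953%). The 9 were 1 region at a gene end, 2 inside genes and 6 distal ones, and the 1 was distal. With 13877 peaks in every list, 44 regions were left, 3 in knockout alone (5.23% of all regions) and 4 in wild type alone (6.20%). The wild-type count was 21 without knockout replicate 2 and 21 without wild-type replicate 2, and the knockout count ran from 1 to 5 with 1 library left out. A group of 1 library meets the condition more easily, and shares over all regions were not taken in these settings.

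Values of a library are the authors' fold enrichment over local background, which belongs to that library's list. To compare libraries, the 10977 regions with a peak in all 4 were ranked in each library by −log10 q, and a region's rank is given as its percentile in this common set, where 100 is the strongest. The difference between genotypes is the mean knockout percentile minus the mean wild-type percentile, in points. It was tested per region with a two-sided exact permutation test, which with 2 libraries against 2 cannot give a p below 0.33. No region could therefore pass a threshold of 0.05, and directions are stated only as measured values.

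Of the 25 shared regions, both knockout libraries ranked below both wild-type libraries in 8 (32.0%, against 25.0% of all shared regions) and above them in 8 (32.0%, against 22.7%). Each of these 16 had the exact permutation p of 0.33. At gene ends 0 of 3 shared regions were below and 2 above, where 26.9% and 15.3% of all shared gene-end regions were. Inside genes 2 of 6 were below and 2 above, and among distal regions 6 of 16 were below and 4 above. Shares over all shared regions of these 2 classes were not taken, so these counts cannot be set against a background of their own class. The median difference was 0.31 points over the 25 regions and -0.55 points over all shared regions, and directions were mixed. It was 4.62 points for the regions at gene ends or inside genes and -2.85 points for the distal ones. Without knockout replicate 1 the counts were 14 below and 15 above, and without wild-type replicate 1 they were 13 below and 10 above. Without knockout replicate 1, the shortest list, the shared set itself held 37 of the genes' regions. The regions of Acta2 at its start and 10.3 kb beyond it ranked higher in knockout, while those around Cnn1 ranked lower.

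**Figure D2:**
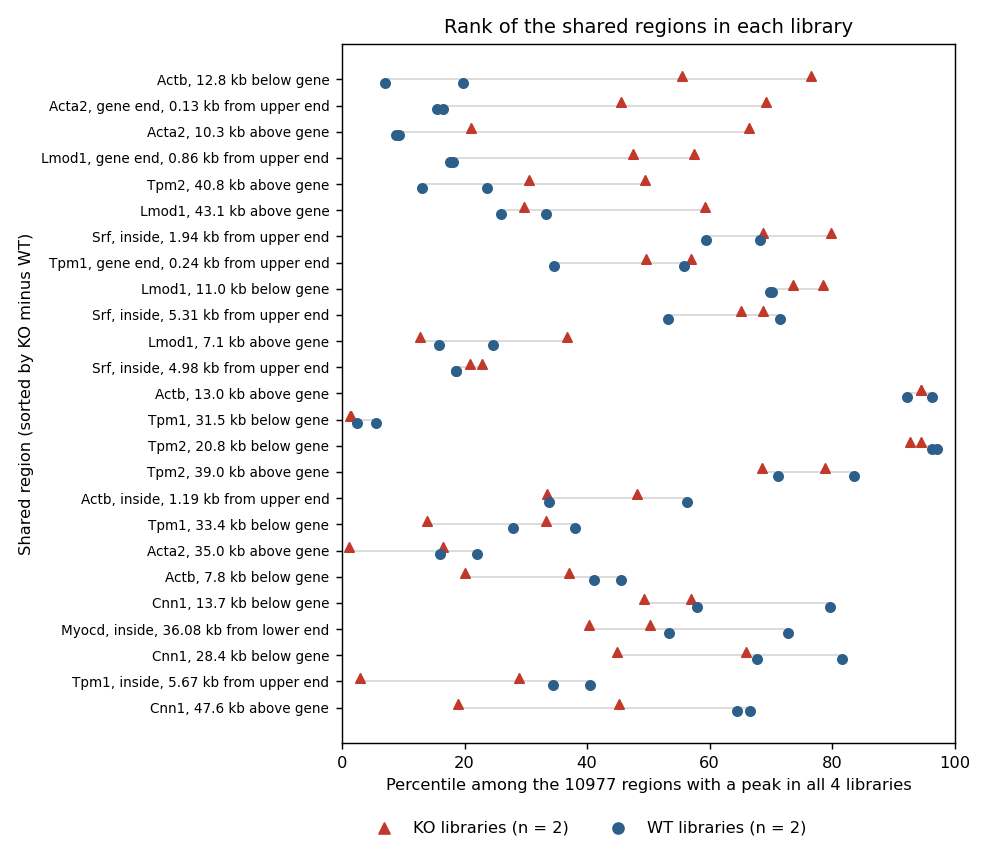
Percentile of each of the 25 shared regions (rows, sorted by the difference) among the regions with a peak in all 4 libraries, for knockout (red triangles) and wild-type (blue circles) libraries, 2 each. The genotypes are apart in 16 rows, 8 with knockout higher and 8 with knockout lower. Lower and upper refer to the gene's end with the smaller and the larger coordinate.

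The Srf gene (20807, chromosome 17, 46546838-46558267), which encodes the factor that binds CArG boxes, was open in every library at 3 regions and had no distal region within 50 kb. The promoter region, at 46556203-46556454, lies over the bases shown above. In knockout replicate 1 the peak ended at -73 from the RefSeq start, on the last base of the farther CArG box, and in knockout replicate 2 at -60, inside the nearer one. In the wild-type libraries it ended at -41 and -45, past both boxes. The summits lay at -168 and -168 in knockout and at -170 and -136 in wild type. Peak widths were 178 and 223 bp in knockout and 252 and 233 bp in wild type. Depth is unknown, and its part in the widths was not tested. The fold enrichment of the promoter region was 7.80 and 10.8 in the knockout libraries and 11.6 and 11.6 in the wild-type libraries. Its percentile was 68.7 and 79.8 in knockout, against 59.4 and 68.1 in wild type, a difference of 10.5 points (exact permutation p = 0.33). Both knockout values were above both wild-type values, with knockout replicate 1 and wild-type replicate 2 nearly equal. Regions of chromosome 17 as a whole ranked higher in knockout by a median of 3.95 points. When the regions of that chromosome alone were ranked, the Srf difference was 6.23 points and the genotypes overlapped. It was 4.86 points without knockout replicate 2 and 6.05 without wild-type replicate 1. Ranked by fold it was 8.68 points, and the genotypes overlapped there as well.

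A pair of neighbouring regions lay 5.31 and 4.98 kb inside the upper end of Srf. The one at 5.31 kb had percentiles of 65.2 and 68.7 in knockout and 53.2 and 71.4 in wild type, which overlapped. The one at 4.98 kb had 20.9 and 22.8 in knockout and 18.6 and 18.6 in wild type, a difference of 3.22 points that became -2.02 when ranked within the chromosome and ran from 0.085 to 9.10 with 1 library left out, lowest without wild-type replicate 2 and highest without knockout replicate 1. Just past the window, 50.1 kb below Srf, a further shared region had folds of 5.64 and 6.05 in knockout and 10.8 and 9.52 in wild type.

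Myocd (214384, chromosome 11, 65173608-65269989) encodes myocardin, the smooth and cardiac muscle coactivator of SRF. Neither end of the gene was open in any library, but 2 regions inside it were. The region 36.1 kb from the lower end, 65209531-65209838, had folds of 8.02 and 11.2 in knockout and 16.3 and 16.5 in wild type, the highest wild-type folds at or inside any of the 10 genes. Its percentile was 40.4 and 50.2 in knockout and 53.3 and 72.7 in wild type, a difference of -17.7 points (exact permutation p = 0.33). The knockout values lay below both wild-type values, and with ranks taken within chromosome 11 the genotypes overlapped. The difference was -9.35 points without knockout replicate 1, -8.34 without wild-type replicate 2 and -27.4 without wild-type replicate 1. The second region, 42.9 kb from the upper end and 640 bp wide, had a peak in the wild-type libraries alone, with folds of 10.3 and 9.40 at list percentiles 67.9 and 49.2. Both of these peaks were among the 13877 strongest of their lists.

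Acta2 (11475, chromosome 19, 34240336-34255585), the smooth muscle alpha-actin of contractile cells and myofibroblasts, had its start open in all 4 libraries. Peaks there covered all 250 bases shown above, and folds were 9.30 and 9.35 in knockout and 8.60 and 7.41 in wild type. Percentiles were 69.1 and 45.5 in knockout and 15.5 and 16.5 in wild type, a difference of 41.3 points (exact permutation p = 0.33). The wild-type libraries were close to each other, and both knockout libraries were far above them. In all, 1.65% of all shared regions differed by as much in this direction, and 3 of the 363 on chromosome 19 did, this one included. Chromosome 19 as a whole ranked lower in knockout, by a median of -4.45 points, and 12.7% of its regions had both knockout values on top. Without 1 library at a time the difference ran from 32.8 to 52.8 points.

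The summits of the Acta2 start peaks lay at -180 and -81 in knockout and at -7 and 10 in wild type, counted in bases from the RefSeq start. The knockout summits lay further from each other than that of knockout replicate 2 did from that of wild-type replicate 1. A second Acta2 region, 10.3 kb beyond the upper end at 34265596-34266030, had folds of 10.5 and 8.22 in knockout and 8.21 and 7.29 in wild type. Its percentiles were 66.4 and 21.1 in knockout and 9.28 and 8.85 in wild type, a difference of 34.7 points (exact permutation p = 0.33). Here the knockout libraries were further from each other than the genotypes were, and without knockout replicate 2 it was 57.2 points and without knockout replicate 1 it was 21.1. Further out, at a gene end of Fas, a death receptor, percentiles were 16.5 and 1.23 in knockout and 16.0 and 22.0 in wild type, which overlapped. The remaining 6 Acta2 regions were each missing from at least 1 library, and 1 of them, with a peak of fold 6.35 in knockout replicate 2 alone, lay at the lower end shared with Stambpl1. Another lay 3.97 kb inside that end, with a fold of 6.005 in wild-type replicate 1 alone.

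Actb (11461, chromosome 5, 142903115-142907976), the cytoplasmic beta-actin, had 13 regions, the most of the 10 genes. The region 1.19 kb inside its upper end had folds of 6.69 and 6.87 in knockout and 8.62 and 10.3 in wild type. Its percentiles were 48.2 and 33.4 in knockout and 33.8 and 56.4 in wild type, which overlapped. A region 1.92 kb inside the same end, 142905816-142906171, had a peak in the wild-type libraries alone, with folds of 7.16 and 7.56 at list percentiles 67.9 and 52.4. The authors' deposited table of regions enriched in wild type lists it, at 142905856-142906255. No other region of the authors' deposited tables lay within 50 kb of a member, of 189 regions enriched in knockout and 190 enriched in wild type. The share of all protein-coding genes within 50 kb of such a region was not taken.

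The regions on either side of Actb did not share a direction. At 12.8 kb below the gene, inside Fbxl18, folds were 10.3 and 10.0 in knockout and 9.57 and 6.18 in wild type. Percentiles there were 76.6 and 55.5 in knockout and 19.8 and 7.07 in wild type, a difference of 52.6 points (exact permutation p = 0.33). This was the widest gap of the 25 regions, and 0.328% of all shared regions differed by as much in this direction. It ran from 41.8 to 62.8 points with 1 library left out. At 7.85 kb below the gene, also inside Fbxl18, percentiles were 20.0 and 37.1 in knockout and 45.5 and 41.1 in wild type, a difference of -14.8 points that was -3.77 without knockout replicate 1 and -23.3 without knockout replicate 2. The strongest Actb region, 13.0 kb above the gene, was at percentiles 94.5 and 94.6 in knockout and 92.2 and 96.2 in wild type, with folds of 15.0 and 18.9 in knockout and 21.1 and 21.6 in wild type. A pair of weaker regions above the gene had a peak in the wild-type libraries alone, with folds of 6.12 and 5.53 at 21.6 kb and of 6.503 and 6.37 at 27.8 kb.

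**Figure D3:**
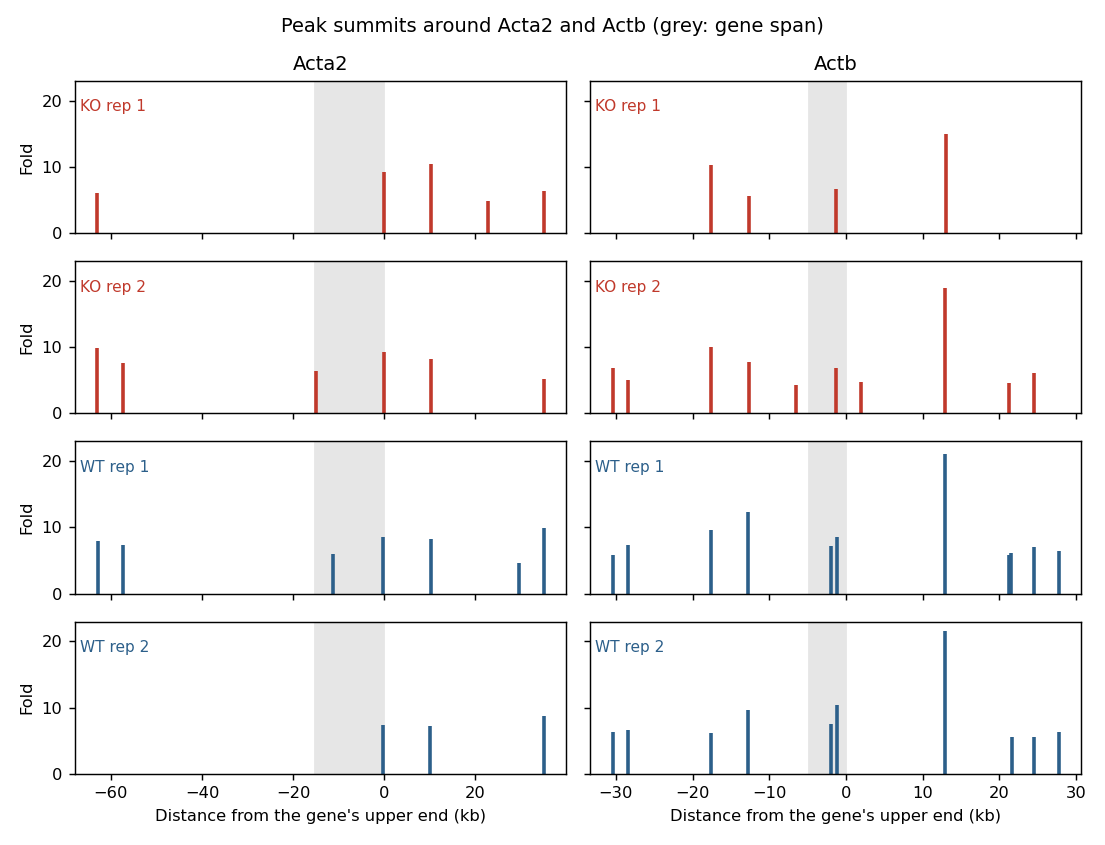
Fold enrichment of every peak (vertical lines at the summits) around Acta2 and Actb in the knockout (red) and wild-type (blue) libraries, against the distance from the gene's upper end in kb, with the gene span in grey. The line at the upper end of Acta2 is present in every row, and the second line inside Actb is present in the wild-type rows alone.

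Tagln (21345, chromosome 9, 45929628-45936058), which encodes the actin-binding protein transgelin, had a peak neither at its ends nor inside it. It had no region within 19 kb of either end, and of its 5 distal regions none was shared by all 4 libraries and none was in knockout replicate 1. A pair of them had a peak in the wild-type libraries alone. One, at the facing ends of Rnf214 and Pcsk7, had folds of 6.36 and 7.53 in wild type, and one inside Sidt2, 19.2 kb from Tagln, had 6.69 and 7.26. All 4 of these peaks ranked low, at list percentiles between 30.2 and 40.6. The outermost region, at 49.4 kb, just inside the window, had a peak in wild-type replicate 1 alone with a fold of 5.01.

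Cnn1 (12797, chromosome 9, 22099221-22109221) encodes calponin, an actin-binding inhibitor of smooth muscle myosin. Its own span held no peak, and the closest region, 3.03 kb before the gene, had folds of 7.89 in knockout replicate 2 and 8.78 and 6.75 in the wild-type libraries. Of its 7 distal regions 5 lay at ends of other genes, and all 3 shared ones ranked lower in knockout. The region at the end of Pigyl, 47.6 kb away, had folds of 6.62 and 10.6 in knockout and 17.4 and 14.8 in wild type. Its percentiles were 19.0 and 45.3 in knockout and 64.5 and 66.6 in wild type, a difference of -33.4 points (exact permutation p = 0.33) that was -15.2 without knockout replicate 1. The regions at ends of Ecsit, an adaptor protein of innate immune signalling, and Zfp653 differed by -15.6 and -19.3 points. Ranked by fold they differed by -11.0 and -18.9 points, and the genotypes overlapped at both. The Ecsit difference was -4.81 points without wild-type replicate 1, -8.49 without knockout replicate 1 and -24.3 without wild-type replicate 2. The one at the ends of Zfp653 and Ecsit was -8.62 without knockout replicate 2 and -11.4 without wild-type replicate 2. Chromosome 9 ranked lower in knockout as a whole, by a median of -4.81 points, and 40.6% of its regions had both knockout values below. Ranked within that chromosome, the Pigyl region kept its groups apart and the others did not.

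Lmod1 (93689, chromosome 1, 135324813-135368065) encodes leiomodin 1, an actin nucleator of smooth muscle. Its start had weak peaks, with a fold of 4.96 in knockout replicate 2, none in knockout replicate 1, and 7.91 and 5.53 in wild type. In list percentiles these were 20.3 in knockout replicate 2 and 42.2 and 3.92 in wild type, low in all but wild-type replicate 1. The region 0.86 kb inside its 3′ end had folds of 8.10 and 9.03 in knockout and 9.75 and 7.63 in wild type. Its percentiles were 57.4 and 47.4 in knockout and 18.1 and 17.6 in wild type, a difference of 34.6 points (exact permutation p = 0.33). It ran from 31.0 to 39.4 points with 1 library left out, and 3.17% of all shared regions differed by as much. Chromosome 1 had a median difference of 1.92 points, and the groups stayed apart when ranked within it. The region at an end of Timm17a, a mitochondrial import subunit, 11.0 kb before Lmod1, differed by 6.08 points, which was 3.55 without knockout replicate 2, 2.49 within the chromosome and 1.59 ranked by fold. The 2 other shared regions, beyond the gene, overlapped. A further gene-end region, 0.31 kb past the 3′ end, had folds of 5.28 and 5.75 in knockout and 9.69 in wild-type replicate 1. One inside the gene, 6.54 kb from its start, had a fold of 4.79 in wild-type replicate 1 alone.

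Tpm1 (22003, chromosome 9, 67022590-67049672), a tropomyosin that coils along actin filaments, was open at its start in all 4 libraries. Folds there were 8.26 and 11.4 in knockout and 13.7 and 9.44 in wild type. Percentiles were 49.6 and 57.0 in knockout and 55.8 and 34.6 in wild type, which overlapped, with a difference of 8.10 points (exact permutation p = 0.667). On this chromosome, where regions mostly ranked lower in knockout, the same region was 17.5 points higher in knockout when ranked within the chromosome, and its groups no longer overlapped. Ranked by fold it was 15.8 points, and without wild-type replicate 1 it was 18.6. A region 5.67 kb from the upper end, inside the gene, went the other way. Its folds were 5.10 and 8.84 in knockout and 11.7 and 10.2 in wild type, and its percentiles were 2.94 and 28.9 in knockout and 34.5 and 40.5 in wild type. This difference was -21.6 points (exact permutation p = 0.33) and ran from -5.58 without knockout replicate 1 to -35.1 without knockout replicate 2. The groups overlapped when ranked within the chromosome, and also when ranked by fold, where the difference was -15.6 points. Of the distal regions of Tpm1, those 10.0 and 21.3 kb below the gene had a peak in the wild-type libraries alone, with folds of 10.0 and 6.63 at the first and 11.2 and 6.63 at the second. A weak shared region 31.5 kb below the gene had percentiles of 1.43 and 1.38 in knockout and 2.50 and 5.56 in wild type. Its difference of -2.63 points (exact permutation p = 0.33) was -5.31 without wild-type replicate 2, -4.30 without wild-type replicate 1, -0.995 ranked by fold and -0.718 within the chromosome. Inside Tpm1, a region 2.55 kb from the lower end had folds of 4.69 in knockout replicate 2 and 4.80 and 6.55 in wild type, and one 4.55 kb from the upper end had 5.95 in wild-type replicate 2 alone.

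Tpm2 (22004, chromosome 4, 43513726-43523583), the second tropomyosin here, had no gene-end peak. Its 2 intragenic regions had a peak in wild-type replicate 1 alone, with folds of 4.67 and 6.86. The stronger lay 1.18 kb inside the upper end, just past the limit for a gene end, while the Lmod1 region at 0.86 kb was the one nearest that limit on the inside. Its window held the only region with a peak in the 2 knockout libraries alone, 43560340-43560495 inside Tln1, which encodes the adhesion protein talin. The folds there were 4.84 and 5.14 in knockout, at list percentiles 31.3 and 57.2. A shared region inside Creb3, 40.8 kb away, had percentiles of 30.5 and 49.4 in knockout and 13.1 and 23.7 in wild type, a difference of 21.6 points. This was 8.89 points when ranked by fold, 12.2 without knockout replicate 2 and 33.0 without knockout replicate 1. A strong one near Ccdc107 was at 92.7 and 94.5 in knockout and 96.2 and 97.1 in wild type, a difference of -3.08 points that was -1.59 without knockout replicate 1 and -4.87 ranked by fold.

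Myl9 (98932, chromosome 2, 156775408-156781657) encodes the regulatory light chain through which myosin is switched on by phosphorylation. It had a single region at its start, 156774984-156775401, with no peak in the knockout libraries and folds of 7.34 and 4.97 in wild type. These peaks stood at list percentiles 50.4 and 2.22, so the second was among the weakest of its list. With 13877 peaks per list neither was kept, and with a −log10 q of at least 5 the count of genes open in wild type alone was 0. In wild-type replicate 2 the peak covered 96 of the bases shown above, and in wild-type replicate 1 it covered 188, including both boxes, while the narrower one reached into the exact box alone.

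**Figure D4:**
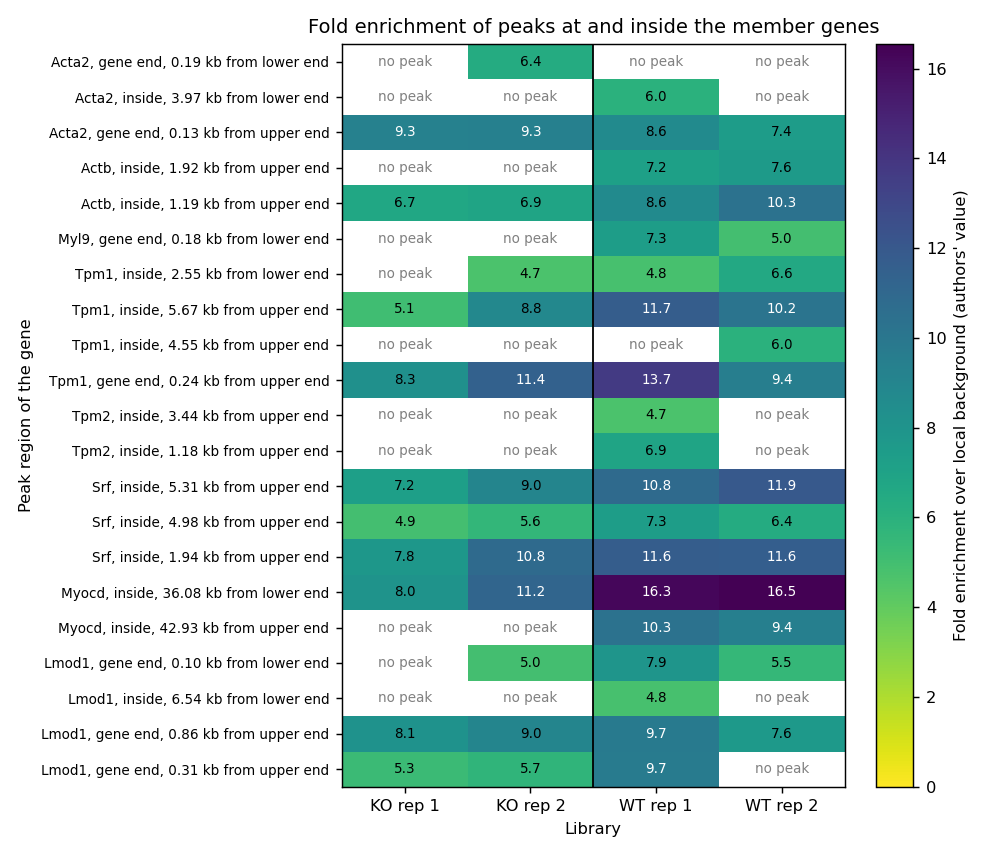
Fold enrichment (number and colour, authors' values) of the 21 regions at the ends of or inside the genes (rows) in the knockout and wild-type libraries (columns), where "no peak" marks a region missing from that list. Of these regions 9 have a value in every column, 3 in the wild-type columns alone (Actb, Myl9 and Myocd) and none in the knockout columns alone.

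Directions could be set beside those of the chromosomes the genes lie on. On chromosome 9, which holds Tagln, Cnn1 and Tpm1, 5 of 7 shared regions had knockout below wild type and 0 above, where the chromosome's shares were 40.6% and 16.0%. On chromosome 17, with Srf, 2 of 3 had knockout above, against 34.5%, and on chromosome 19, with Acta2, 2 of 3, against 12.7%. On chromosome 1, with Lmod1, 2 of 4 had knockout above, against 29.1%. On chromosome 4, with Tpm2, 1 of 3 had knockout below, against 22.4%, and 1 above, against 20.0%. On chromosome 5, with Actb, 1 of 4 had knockout below, against 28.5%, and 1 above, against 19.6%. The 1 shared Myocd region had knockout below, against 24.0% of regions on chromosome 11. With each chromosome ranked on its own, 4 of the 25 regions had knockout below (23.2% of all shared regions) and 6 above (21.4%). Those below were the Actb region at 7.85 kb, the Pigyl end near Cnn1, the Ccdc107 end near Tpm2 and the Srf region at 4.98 kb. Those above were the 2 Acta2 regions, the Actb region at 12.8 kb, the Lmod1 3′ end, the Tpm1 start and the Tpm2 region in Creb3.

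**Figure D5:**
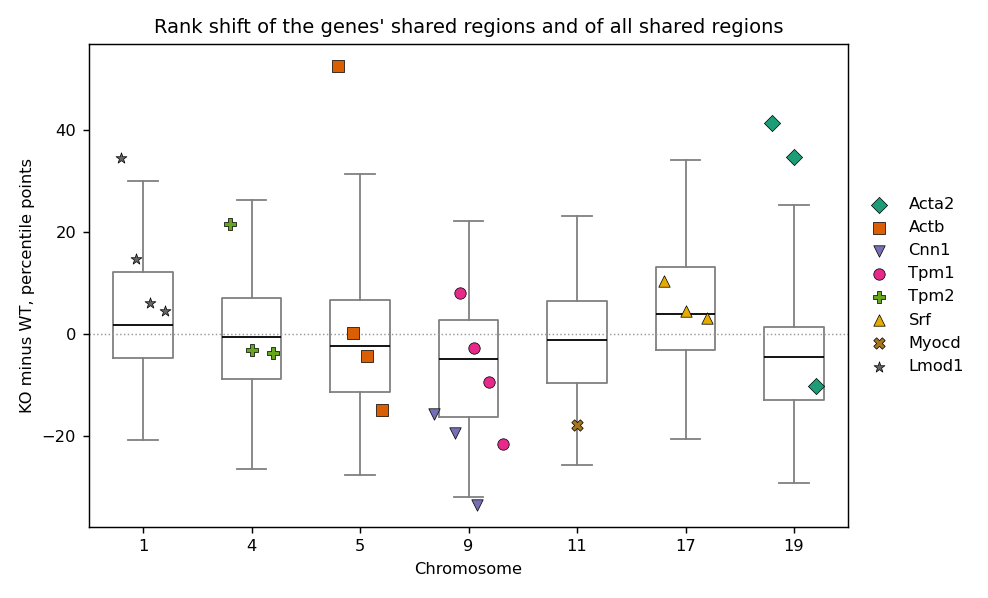
Knockout minus wild-type difference in percentile points of the 25 shared regions (symbols by gene), over boxes of all shared regions of the same chromosome (median, quartiles, whiskers from the 5th to the 95th percentile). Both Acta2 regions at 41.3 and 34.7 points and the Actb region at 52.6 points lie above the whiskers of their chromosomes, as does the Lmod1 region at 34.6, while the Cnn1 region at -33.4 lies below its whisker.

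A wider list held 80 other smooth muscle contractile, actin cytoskeleton and SRF cofactor genes. A gene-end peak was present in all 4 libraries for 37 genes (46.2%, against 26.4% of protein-coding genes), among them Actn1, Vcl, Zyx, Myh9, Tagln2 and Mrtfa, an SRF coactivator. The 37 also included Smtn, Cald1, Csrp1, Csrp2 and Tgfb1i1. At least 1 library had such a peak for 55 of the 80 genes, against 43.4% of protein-coding genes. A gene-end peak was absent from every library for 25, among them Myh11, Actg2, Des, Mylk and Kcnmb1, and also Flna, Tpm3, Tpm4 and Mrtfb. Counts by library were 38 and 49 in knockout and 54 and 47 in wild type. Actg1, the cytoplasmic gamma-actin, and Lpp, a zyxin relative, had one in the wild-type libraries alone (2 of 80, against 1.69%), and 0 showed the reverse (0.0503%). Without knockout replicate 2 the wild-type count was 10, and without wild-type replicate 2 it was 6, with shares over all genes not taken. With 13877 peaks per list it was 0 (1.36% of all genes), and Rock2, a protein kinase, and Anxa2, an actin-binding annexin, then had one in the knockout libraries alone (0.466%).

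Of 38 genes of this list with a shared region at an end, 8 had knockout below wild type (21.1%, against 26.9% of all shared gene-end regions) and 5 above (13.2%, against 15.3%), close to the background. Ranked within the chromosome, 5 were below and 5 above. Csrp2, a smooth muscle LIM protein, had percentiles of 47.0 and 15.6 in knockout and 72.4 and 52.1 in wild type, a difference of -30.9 points, on chromosome 10, whose median was -5.46. Pdlim5, an alpha-actinin partner, had 47.0 and 43.5 in knockout and 57.7 and 71.0 in wild type, a difference of -19.1 points. Of the others set apart in this direction, Capzb, Tagln2 and Dstn differed by -12.5, -12.2 and -11.2 points. The 5 genes with both knockout values above both wild-type values were Rock2 at 8.47 points, Actn4 at 7.08, Diaph1 at 7.02, Rock1 at 5.89 and Limk1 at 2.86. The Rock2 region was weak, at percentiles 16.4 and 10.5 in knockout and 8.34 and 1.59 in wild type. Diaph1 and Rock1 lie on chromosome 18, whose median was 3.35 points. Capzb and Actn4 overlapped when ranked within the chromosome. Tgfb1i1 and Vim, named after their values were seen, had higher differences, 17.0 and 12.6 points, with genotypes that overlapped, and within its chromosome Vim no longer overlapped. For every gene set apart, in either direction, the exact permutation p was 0.33, the smallest possible. The authors' deposited tables list regions enriched in knockout within 50 kb of Actn4, where there were 2, and of Arpc5, Diaph1 and Ldb3. The same deposited tables of the authors list regions enriched in wild type at Csrp2 and Myl6, inside Anxa2, and within 50 kb of Rhoa, Cfl1 and Myh9. The share of all genes this near a deposited region was not taken, so the genes named have no background beside them.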

How the data were processed

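Peaks were called in each library separately, per the peak names in the deposited lists. Per the submitters' processing notes, which give no role or order, the build was mm10 and the tools included DESeq2, DiffBind 2.2.12, MACS2, deepTools, Bowtie2 and cutadapt. Their settings, and the threshold of the deposited differential tables, are not stated there. The deposited fold enrichment is, by the layout of the lists, a ratio at the summit over the library's own local background. The deposited −log10 p and −log10 q belong to the same summit, the lowest −log10 q being just above 3, and the deposited score was not used. The deposited lists hold no read counts, so depth is unknown and no count test was made.

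Peaks overlapping by at least 1 bp were joined, a region's library value being its peak of highest −log10 q. Percentiles were taken among the 10977 regions shared by all 4 libraries, and gene spans and promoters came from RefSeq GRCm38.p6, the assembly of mm10. Python 3.11.15, numpy 2.4.6, pandas 2.3.3 and matplotlib 3.10.9 were used, and ranking was tested on simulated data. The members and lists were chosen with earlier results of these data known. Named were all 10 genes with their own regions, distal regions set apart between genotypes, found in 1 genotype alone or in a deposited table, and from the wider list genes open in 1 genotype alone, the 5 largest differences per direction among those whose genotypes did not overlap, and genes near deposited regions. Alternatives covered list length, −log10 q, overlap, gene-end distance, window, rank measure, chromosome, pairing and single libraries.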

Additional observations from a re-analysis of the deposited data

How the results depend on the processing

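The difference in rank was followed for 19 regions, and 15 kept their direction in every alternative that gave a value. The Actb region 1.19 kb inside the gene became 3.11 points without knockout replicate 2 and 5.22 without wild-type replicate 2, over a range of -15.6 to 5.22 with 1 library left out. The Srf region at 4.98 kb became -2.06 ranked by fold and -2.02 ranked within its chromosome. The Srf region at 5.31 kb became -2.64 ranked by fold, 0.00 ranked within its chromosome and -4.51 without wild-type replicate 1, over -4.51 to 12.1 with 1 library left out. The Tpm1 start became -2.86 without wild-type replicate 2, over -2.86 to 18.6. The cause was not tested.

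Genes with a gene-end peak in all 4 libraries numbered 5 with 2 kb allowed and 3 in each other alternative, 3 of 7 when only RefSeq starts counted, a choice made after seeing the data. By RefSeq starts these were Acta2, Tpm1 and Srf, so Srf took the place of Lmod1, whose start had a peak in 3 libraries. Genes open in wild type alone numbered 0 with a −log10 q of at least 5 and 0 with 13877 peaks per list. Shared regions with knockout below wild type numbered 5 of 25 ranked by fold and 4 of 25 ranked within the chromosome. Those above numbered 6 of 25 in each. In a 100 kb window 14 of 36 were below and 9 above, and in a 20 kb window 4 of 16 were below and 7 above. Of all shared regions, 25.0% were below and 22.7% above, or 23.2% and 21.4% ranked within the chromosome. These shares were not taken for ranks by fold. With 1 library left out, 10 to 14 were below and 8 to 15 above. Regions in wild type alone numbered 4 of 44 with 13877 peaks per list, 16 of 111 in a 100 kb window and 5 of 37 in a 20 kb window. Those in knockout alone numbered 3, 1 and 0 in the same settings. Of all merged regions, 6.20% were in wild type alone and 5.23% in knockout alone with 13877 peaks per list, and 6.52% and 0.953% with full lists. With 1 library left out, 9 to 21 were in wild type alone and 1 to 5 in knockout alone. For the wider list, genes open in wild type alone numbered 0 with 13877 peaks per list and 1 with 2 kb allowed, and 2 to 10 with 1 library left out. Genes open in knockout alone numbered 2 with 13877 peaks per list and 0 to 1 with 1 library left out. Counts with 1 library left out have no share over all regions or genes beside them, and a group of 1 library meets the conditions more easily.

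Libraries with the same replicate number in their titles deviated with a correlation of 0.029 over 10977 regions, so no shared deviation was seen under this numbering. This value cannot show whether libraries were prepared in pairs. With the replicate number as a block, 10 regions had knockout below wild type in both pairs and 8 above. List length, which depends on depth, limits every statement on a missing peak.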
